A study of Homo sapiens with 12 samples.

Results

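The machinery that brings secretory and membrane proteins into the endoplasmic reticulum (ER), trims and glycosylates them and helps them fold was followed through the mRNA levels of 35 genes in A549 cells. The genes were taken by symbol from a list in 6 roles: the signal recognition particle (SRP) and its receptor with 7 genes, the translocon with 5, the TRAP complex with 4, signal peptidase with 5, oligosaccharyltransferase with 7 and the folding enzymes and chaperones with 7. All 35 symbols were found among the 58671 gene rows of the deposited table. All 35 also passed the requirement of at least 1 FPKM in any group, as did 22087 gene rows, of which 12181 were protein-coding. FPKM, the number of fragments per length of transcript and per mapped fragments of the library, is a level corrected for transcript length and library size.

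A549 is a human lung adenocarcinoma cell line. RNase L knockout A549 cells (RLKO) transfected with poly(I:C), a mimic of viral double-stranded RNA, at 500 ng/ml for 6 h were set against untreated RLKO cells, and parental A549 cells (WT) given the same poly(I:C) for 6 h were set against untreated WT cells. Each of the 4 groups had 3 independent samples of total RNA, 12 in all, with ERCC spike-in RNAs added before ribosomal RNA was depleted. The table gives 1 FPKM value per group, which the authors pooled over its samples, so no value below has an SD, an n or a known depth, and p- and q-values are those of the authors' deposited table. Whether the RLKO cells are 1 clone, how the gene was disrupted and whether the untreated cells received transfection reagent are not given in the sources used here.

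Ribosomes that start a secretory or membrane protein are recognised by SRP through the signal sequence, docked on the SRP receptor and handed to the Sec61 channel. The TRAP complex assists the passage, signal peptidase removes the signal sequence, oligosaccharyltransferase attaches glycans to asparagine, and lectin chaperones and disulfide isomerases fold the chain. Double-stranded RNA switches on oligoadenylate synthetases, whose products activate RNase L, an endoribonuclease that cuts single-stranded RNA after UU and UA.

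After poly(I:C) the ER transcripts were lower than in untreated cells by far more in WT than in RLKO cells. On a scale set by the spike-ins, as log2 of FPKM plus a pseudocount of 1, the median change over the 35 genes was -0.66 in RLKO cells and -1.91 in WT cells, where all 35 values lay below 0. Without the pseudocount, the median transcript kept 63.1% of its untreated level in RLKO cells and 26.1% in WT cells. The 4 genes SEC61G, SSR4, DAD1 and CANX, fell in WT cells by the authors' q under 0.05, and none rose. In RLKO cells 0 of 35 passed q under 0.05 in either direction. Of 12181 protein-coding genes only 3 were called lower and 100 higher there, so 0 of 35 was near the share of all genes. On this scale the change was higher in RLKO than in WT cells for all 35 genes, by a median of 1.49 log2 units, and this difference between genotypes was not tested. It was higher for 33 of 35 in the FPKM as deposited, SPCS2 and SRP68 being the exceptions, and for 34 with median-ratio scaling, SPCS2 being the exception. Most other genes showed the same order on the spike-in scale. The change was higher in RLKO cells for 8926 of 12181 protein-coding genes, with a median difference of 0.47. Among the 2598 whose untreated WT level lay within the range of the 35, it was higher for 2475, with a median difference of 1.15. Of these 2598, 2530 had a WT change below 0. In bulk RNA fewer cells and less RNA per cell cannot be told apart.

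Protein-coding transcripts as a whole were also lower in treated than in untreated WT cells, the abundant ones most, and the counts are given beside theirs. Over the 12181 protein-coding genes the median change was -0.24 in RLKO cells and -0.70 in WT cells, and 26 of the 35 ER genes lay under it in RLKO cells and 34 in WT cells, SRP68 being the exception. The 4 of 35 genes called lower in WT cells compare with 3.35% of all kept rows, 3.09% of protein-coding genes and 9.7% of the 2598 protein-coding genes whose FPKM in untreated WT cells lay within the span of the 35, 41.1 to 866. The count by q was thus near that of equally abundant genes. In the other direction 4.27% of protein-coding genes were called higher in WT cells, against 0 of 35. At an unadjusted p under 0.05 in the authors' deposited table, 20 of 35 were lower in WT cells, against 12.1% of protein-coding genes and 33.8% of those within the span. The median WT change within the span was -1.62, against -1.91 for the ER genes. Of the 2598 genes within it, 2278 lay under the protein-coding median in WT cells, beside 34 of the 35. In RLKO cells 0.0246% of protein-coding genes were called lower by q. At an unadjusted p under 0.05, 4 of 35 were lower in RLKO cells, namely SRP14, SEC61G, SPCS2 and DAD1, against 1.86% of protein-coding genes and 4.7% of the 2342 within the span of the 35 in untreated RLKO cells, 44.8 to 584 FPKM. Of those 2342 genes, 1732 lay under the protein-coding median in RLKO cells, a share near that of the 26 of 35. Their median RLKO change was -0.49, against -0.66 for the ER genes.

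**Figure D1:**
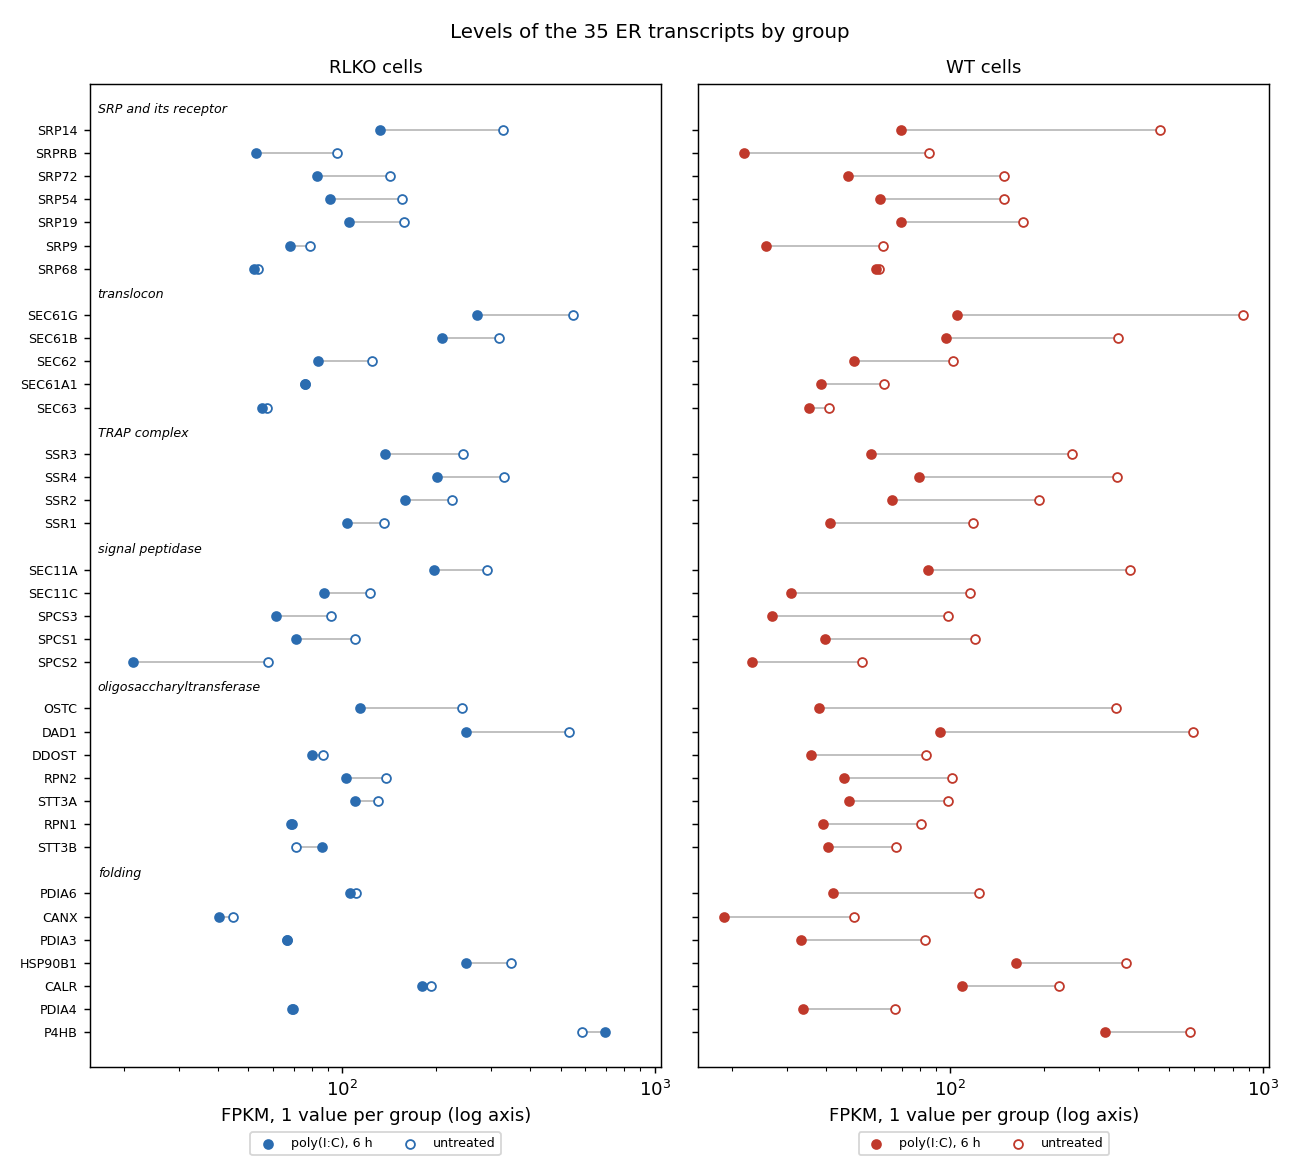
Deposited FPKM (log axis, 1 value per group) of each of the 35 genes in RLKO cells (left) and WT cells (right), with filled points for poly(I:C), open points for untreated cells and a line joining both. Every filled point lies left of its open point in WT cells, from 18.9 FPKM for CANX to 312 for P4HB after poly(I:C), while in RLKO cells 29 do and 6 lie right of it.

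The scale matters for how large these changes look. Of the 49 ERCC spike-ins with a mean of at least 1 FPKM, 32 had a higher FPKM in treated than in untreated RLKO cells. In WT cells 48 had a higher one after treatment. The quartiles of their log2 ratios, treated over untreated, were -0.13 and 0.29 in RLKO cells and 0.42 and 0.86 in WT cells. The scaling factor of the treated group over that of the untreated group was 1.13 in RLKO and 1.53 in WT cells. Dividing by these factors lowers the treated values. In the FPKM as deposited, which need no spike-ins, all 35 ER genes were still lower in treated than in untreated WT cells, and in RLKO cells 29 were lower and 6 higher (P4HB, PDIA3, PDIA4, RPN1, SEC61A1 and STT3B). Of 7 epithelial markers of A549, 6 to 7 had at least 1 FPKM in each group, while 0 of 3 leukocyte and 0 of 3 endothelial markers did and 1 of 4 fibroblast markers, COL1A1, did.

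Among the SRP genes, SRP14 and the receptor gene SRPRB had the lowest changes in WT cells and SRP68 the smallest. SRP14, which forms with SRP9 the domain that pauses elongation, had 132 FPKM in treated and 326 in untreated RLKO cells, against 69.4 in treated and 468 in untreated WT cells. Its log2 change was -1.47 in RLKO and -3.34 in WT cells, the lowest of the role in both, with q = 0.0717 in WT cells in the authors' deposited table. SRP14 was thus lower after poly(I:C) in both genotypes, and its treated level was higher in RLKO than in WT cells although its untreated level was lower. SRP68, which with SRP72 forms a heterodimer on the particle's RNA, had 52.2 FPKM in treated and 53.7 in untreated RLKO cells, against 57.9 in treated and 59.0 in untreated WT cells. The deposited levels of SRP68 hardly differed between groups, and only the spike-in scale puts its changes at -0.22 in RLKO and -0.63 in WT cells, the smallest WT change of all 35 genes.

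SRP72 itself, the partner of SRP68, had 82.8 FPKM in treated and 142 in untreated RLKO cells, against 47.1 in treated and 148 in untreated WT cells. The partners of this heterodimer thus differed in their WT changes, -2.24 for SRP72 and -0.63 for SRP68. SRP19, needed to assemble the particle, had 105 FPKM in treated and 158 in untreated RLKO cells, against 69.3 in treated and 171 in untreated WT cells. SRPRB, the membrane-anchored subunit of the receptor, changed by -1.03 in RLKO and by -2.51 in WT cells, and SRP54, the GTPase that binds the signal sequence, by -0.94 and by -1.91 in the same order. SRP9 had 67.9 FPKM in treated and 78.9 in untreated RLKO cells, against 25.8 in treated and 60.7 in untreated WT cells. Its processed copy SRP9P1 was listed at 933 FPKM in untreated WT cells, 15.4 times SRP9 itself, so how reads were divided between them bears on the SRP9 value and cannot be told from the table.

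In WT cells the translocon held the widest spread of changes within a role, from SEC61G to SEC63. SEC61G, the smallest Sec61 subunit and a single-span membrane protein, had 271 FPKM in treated and 548 in untreated RLKO cells, against 105 in treated and 866 in untreated WT cells. It was the most abundant of the 35 in untreated WT cells. SEC61G fell by 3.64 log2 units in WT cells with q = 0.0194 in the authors' deposited table, and its change in RLKO cells was -1.19 with an unadjusted p of 0.0449 in the same table. SEC61G (ENSG00000132432) lies at chr7:54752250-54759974 on the minus strand (GRCh38).

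SEC61B, the other small subunit, had 208 FPKM in treated and 318 in untreated RLKO cells, against 97.1 in treated and 344 in untreated WT cells. SEC61A1, which forms the channel itself, had 76.1 FPKM in treated and 75.9 in untreated RLKO cells, against 38.7 in treated and 61.1 in untreated WT cells. The subunits of the same channel therefore differed in their WT changes, -3.64 for SEC61G, -2.42 for SEC61B and -1.25 for SEC61A1, the order of their coding lengths of 204, 288 and 1428 bases. SEC62 and SEC63, which serve translocation after translation, changed by -0.74 and -0.23 in RLKO cells and by -1.64 and -0.81 in WT cells. SEC63, whose J domain recruits the chaperone BiP, had 55.6 FPKM in treated and 57.6 in untreated RLKO cells, against 35.2 in treated and 41.1 in untreated WT cells.

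The coding sequence of SEC61G, the gene with the lowest WT change of those called by q, and the first 204 bases of that of SRP68, the least changed in WT cells, show the dinucleotides after which RNase L cuts. They are given 5′ to 3′ from the GENCODE v29 transcripts, with capitals for every TT and TA step (UU and UA in the RNA). SRP68 (ENSG00000167881) lies at chr17:76038775-76072653 on the minus strand (GRCh38).
SEC61G: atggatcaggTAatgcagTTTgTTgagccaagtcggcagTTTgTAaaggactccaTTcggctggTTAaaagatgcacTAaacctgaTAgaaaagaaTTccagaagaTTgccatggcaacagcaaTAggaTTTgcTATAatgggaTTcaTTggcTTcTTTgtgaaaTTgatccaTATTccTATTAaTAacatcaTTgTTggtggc
SRP68: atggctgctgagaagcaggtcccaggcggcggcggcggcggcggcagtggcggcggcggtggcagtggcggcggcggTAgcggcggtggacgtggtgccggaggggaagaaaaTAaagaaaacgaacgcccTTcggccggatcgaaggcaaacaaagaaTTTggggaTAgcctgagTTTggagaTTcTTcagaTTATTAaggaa
SEC61G held 33 such steps in its 204 coding bases, and the same stretch of SRP68 held 14. Over the whole mRNA the contrast was smaller, with 14.1 steps per 100 bases in SEC61G and 8.91 in SRP68. This pair of extremes is not a rule for the list: SSR4, which fell in WT cells, had 5.27 steps per 100 bases, the lowest of the 35, and SPCS3 had 21.5, the highest. Across the 35 mRNAs Spearman's rho between steps per 100 bases and the change was -0.35 in RLKO and -0.18 in WT cells, as a description over genes. The median was 14.2 steps per 100 bases in the ER mRNAs and 11.2 in protein-coding mRNAs. It was 12.6 in the protein-coding mRNAs within the WT level span of the 35.

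The 4 TRAP subunits had similar changes within each genotype. SSR4, the delta subunit, had 201 FPKM in treated and 328 in untreated RLKO cells, against 79.6 in treated and 341 in untreated WT cells, and fell by 2.69 log2 units in WT cells with q = 0.0279 in the authors' deposited table. SSR3, the gamma subunit that spans the membrane several times, had 137 FPKM in treated and 243 in untreated RLKO cells, against 55.7 in treated and 245 in untreated WT cells. SSR3 had the lowest WT change of the role at -2.73, with q = 0.0806 in the authors' deposited table. SSR1, the alpha subunit, had 104 FPKM in treated and 136 in untreated RLKO cells, against 41.1 in treated and 118 in untreated WT cells. SSR2, the beta subunit, changed by -0.67 in RLKO and by -2.16 in WT cells. The 4 subunits thus kept 49.8% to 67.3% of their untreated level in RLKO cells and 14.8% to 22.8% in WT cells. SSR4 (ENSG00000180879) lies at chrX:153793516-153798505 on the plus strand (GRCh38).

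Signal peptidase showed 4 subunits with a clear gap between genotypes and 1 without. SEC11A, a catalytic subunit, had 197 FPKM in treated and 290 in untreated RLKO cells, against 84.6 in treated and 374 in untreated WT cells. SEC11C, its paralogue and alternative catalytic subunit, changed by -0.66 in RLKO and by -2.47 in WT cells, close to the -0.74 and -2.74 of SEC11A. SPCS3, a glycosylated accessory subunit, had 61.5 FPKM in treated and 92.3 in untreated RLKO cells, against 27.0 in treated and 98.0 in untreated WT cells. SPCS1, a small accessory subunit, had 71.3 FPKM in treated and 110 in untreated RLKO cells, against 39.7 in treated and 120 in untreated WT cells.

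SPCS2 departed from the other 34 genes. It had 21.3 FPKM in treated and 58.1 in untreated RLKO cells, against 23.2 in treated and 52.3 in untreated WT cells, so that its levels were nearly the same in both genotypes at each condition. The SPCS2 change of -1.57 in RLKO cells was the lowest of the list there, with an unadjusted p of 0.0182 and a q of 0.866 in the authors' deposited table, and lay 0.16 above its change of -1.73 in WT cells. The sign of that small difference turned under both other scalings, to -0.27 in the FPKM as deposited and to -0.02 with median-ratio scaling. The 4 copies of SPCS2 elsewhere in the genome summed to 76.1 FPKM in untreated WT cells, 1.45 times SPCS2 itself. SPCS2P4 held 75.5 of these FPKM and changed by -0.99 in RLKO and by -2.45 in WT cells, a wider gap than that of SPCS2. The part of the copies in the SPCS2 values was not tested.

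In oligosaccharyltransferase the small subunits OSTC and DAD1 had the lowest changes in WT cells and the catalytic subunit STT3B the smallest. OSTC, which joins the complex to the translocon, had 114 FPKM in treated and 243 in untreated RLKO cells, against 38.0 in treated and 338 in untreated WT cells. Its WT change of -3.72 was the lowest of the 35, 7.36% of the untreated level remaining in WT cells against 41.6% in RLKO cells, yet q was 0.131 in the authors' deposited table. DAD1, named as a defender against cell death and a structural subunit, had 249 FPKM in treated and 532 in untreated RLKO cells, against 92.8 in treated and 599 in untreated WT cells. DAD1 fell by 3.29 log2 units in WT cells with q = 0.0447 in the authors' deposited table, and its change in RLKO cells was -1.27 with an unadjusted p of 0.0448 in the same table. DAD1 (ENSG00000129562) lies at chr14:22564905-22589269 on the minus strand (GRCh38). For both genes the difference between genotypes was among the widest of the list, 2.46 for OSTC and 2.02 for DAD1.

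STT3B, the catalytic subunit that also glycosylates finished chains, had 86.3 FPKM in treated and 70.9 in untreated RLKO cells, against 40.5 in treated and 67.0 in untreated WT cells. It was 1 of 2 genes, with P4HB, whose change in RLKO cells was above 0. STT3A, the catalytic subunit that acts at the translocon, changed by -0.42 in RLKO and by -1.64 in WT cells. RPN1, RPN2 and DDOST, the larger structural subunits, changed by -0.16, -0.59 and -0.30 in RLKO cells and by -1.63, -1.74 and -1.80 in WT cells. The 5 large subunits thus kept 28.1% to 39.5% of their untreated level in WT cells, and OSTC and DAD1 kept 7.36% and 10.1%.

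The folding genes had the smallest changes in RLKO cells, with a median of -0.24, beside a protein-coding median of -0.24, and a median of -1.77 in WT cells. CANX, calnexin, the membrane-bound lectin chaperone, had 40.2 FPKM in treated and 44.8 in untreated RLKO cells, against 18.9 in treated and 49.2 in untreated WT cells. CANX fell by 1.93 log2 units in WT cells with q = 0.0313 in the authors' deposited table, and its change in RLKO cells was -0.33 with an unadjusted p of 0.661 in the same table. CANX was the only one of the 4 called genes whose coding sequence, 1776 bases, is not short. CANX (ENSG00000127022) lies at chr5:179678628-179730925 on the plus strand (GRCh38). CALR, calreticulin, the soluble lectin chaperone, had 180 FPKM in treated and 193 in untreated RLKO cells, against 109 in treated and 223 in untreated WT cells.

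P4HB, the classical protein disulfide isomerase, had 694 FPKM in treated and 584 in untreated RLKO cells, against 312 in treated and 586 in untreated WT cells. It was the most abundant of the 35 in both treated groups and had the smallest WT change of the role, -1.52. PDIA6, another disulfide isomerase, had 106 FPKM in treated and 111 in untreated RLKO cells, against 42.2 in treated and 123 in untreated WT cells, the lowest WT change of the role at -2.13 with q = 0.0601 in the authors' deposited table. HSP90B1, the ER member of the HSP90 chaperones, had 248 FPKM in treated and 346 in untreated RLKO cells, against 162 in treated and 364 in untreated WT cells. PDIA3, which works with the lectin chaperones, and PDIA4 changed by -0.17 and -0.16 in RLKO cells and by -1.90 and -1.56 in WT cells. HSP90B1 was thus the folding gene with the lowest RLKO change, -0.65, and the other 6 lay between -0.33 and 0.07.

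**Figure D2:**
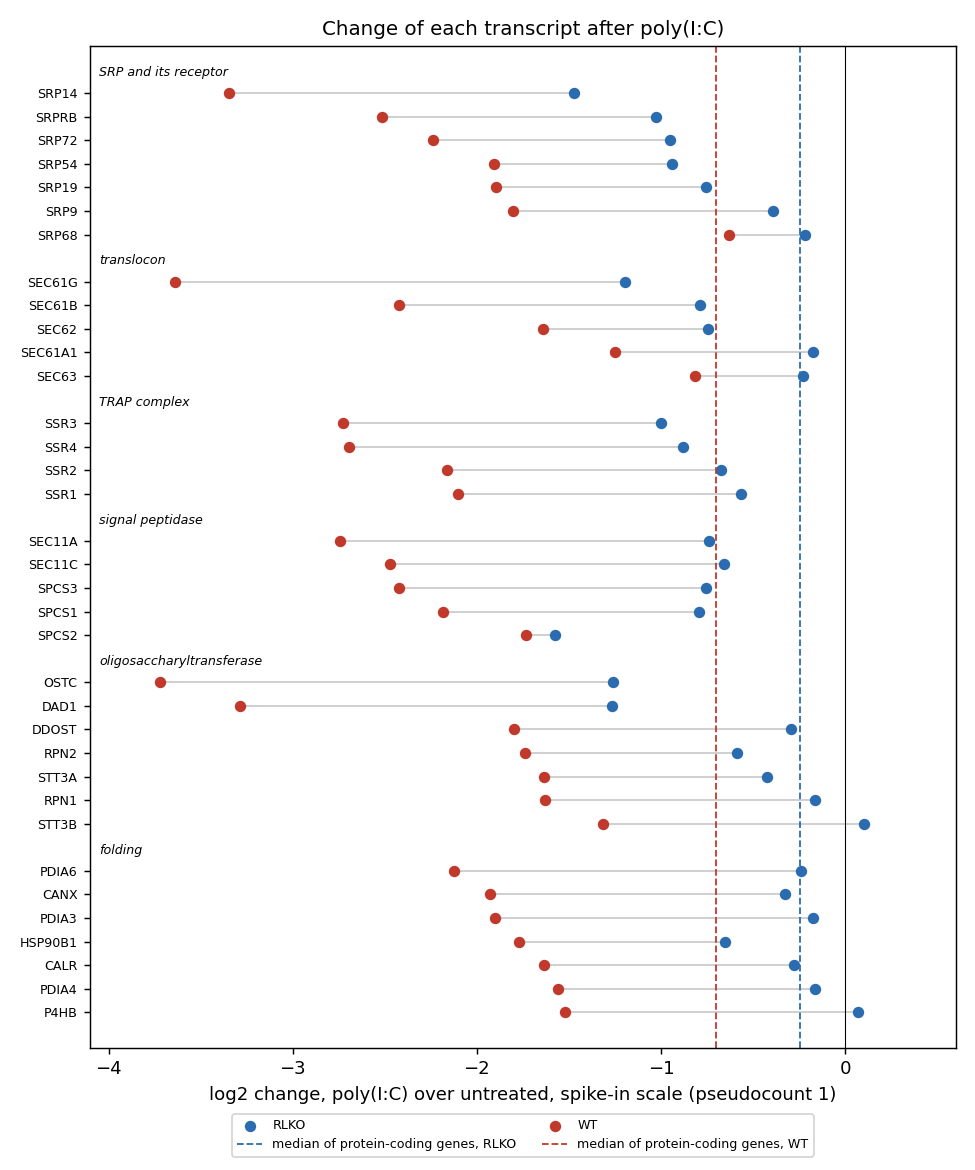
log2 change after poly(I:C) on the spike-in scale (x axis) of each gene, grouped by role, with blue points for RLKO, red points for WT, a line joining both, and dashed lines at the protein-coding medians of -0.24 (RLKO) and -0.70 (WT). On this scale all 35 blue points lie right of their red points, SPCS2 by only 0.16 (the order turns for SPCS2 and SRP68 without spike-in scaling), and SRP68 is the only red point right of the WT dashed line.

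The promoters of several folding genes hold the ER stress response element (ERSE), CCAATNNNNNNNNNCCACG, through which the factors ATF6 and XBP1 act together with NF-Y. In the RefSeq promoter windows (GRCh38.p14), 250 bases before to 50 after the start site, it was searched on both strands in the 31 ER genes with a window; PDIA3, RPN1, SPCS1 and STT3B were not matched. The 4 genes with a match, 12.9% of 31, were CALR, CANX, HSP90B1 and PDIA6, all of the folding role, against 0.0916% of the 27305 gene symbols with a window. The shorter element ERSE-II, ATTGGNCCACG, was in 0 of 31 windows and in 0.0696% of all symbols; it overlaps ERSE in its CCACG end. The matches are shown 5′ to 3′ on the gene's strand with 20 flanking bases on each side and capitals for the ERSE letters, since they mark the genes of the list that carry the textbook element of ER stress induction.
CALR (chr19:12938364-12938422, plus strand): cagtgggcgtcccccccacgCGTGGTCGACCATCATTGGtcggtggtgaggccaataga
CANX (chr5:179698758-179698816, plus strand): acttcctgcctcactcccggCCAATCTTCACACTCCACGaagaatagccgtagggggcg
HSP90B1 upstream match (chr12:103930196-103930254, plus strand): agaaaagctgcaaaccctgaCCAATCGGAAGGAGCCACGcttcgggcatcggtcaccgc
HSP90B1 downstream match (chr12:103930301-103930359, plus strand): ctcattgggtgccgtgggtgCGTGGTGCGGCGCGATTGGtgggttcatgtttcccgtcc
PDIA6 (chr2:10812833-10812891, minus strand): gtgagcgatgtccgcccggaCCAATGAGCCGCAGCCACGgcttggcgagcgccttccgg
None of these 4 genes was called higher after poly(I:C) in either genotype. Few protein-coding genes were, 4.27% in WT cells and 100 of 12181 in RLKO cells, so 0 of 4 was near the share of all genes. Whether the element acted was not tested. The changes of these 4 genes were -0.28 for CALR, -0.33 for CANX, -0.65 for HSP90B1 and -0.24 for PDIA6 in RLKO cells, and -1.63, -1.93, -1.77 and -2.13 in WT cells. A match in these letters is a description of the window and shows no binding.

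Across roles the medians in WT cells were lowest for the TRAP complex and signal peptidase and highest for the translocon. The median change in RLKO cells and then in WT cells was -0.94 and -1.91 for SRP and its receptor, -0.74 and -1.64 for the translocon, and -0.78 and -2.43 for the TRAP complex. For signal peptidase it was -0.75 and -2.42, for oligosaccharyltransferase -0.42 and -1.74, and for folding -0.24 and -1.77. The folding genes were thus closest to 0 in RLKO cells but not in WT cells, where the translocon and oligosaccharyltransferase medians were higher than theirs. The median difference between genotypes ran from 1.08 for the translocon to 1.67 for signal peptidase.

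The genotypes also differed slightly before treatment. On the spike-in scale 30 of 35 genes were lower in untreated RLKO than in untreated WT cells, by a median of 0.35 log2 units, and the protein-coding median was lower by 0.24. So were 9524 of 12181 protein-coding genes, and 2369 of the 2598 within the WT level span of the 35. The median difference within that span was -0.36, near that of the list. After poly(I:C) 34 of 35 were higher in RLKO than in WT cells, with a median of 1.23 against 0.25 for protein-coding genes, and SRP68 was the exception at -0.01. Of protein-coding genes 7828 of 12181 were higher, and within the span 2381 of 2598, with a median of 0.77. SEC61G had the lowest untreated difference, -0.95, and SEC63 the highest, 0.19. Without spike-in scaling 20 of 35 were lower in untreated RLKO cells and the median difference was -0.05, so the untreated difference rests on the scale. These comparisons between genotypes have no test, since the table gives no value per sample.

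ER genes with short coding sequences had lower median changes than those with long ones. The 14 genes with a coding sequence under 600 bases had median changes of -0.79 in RLKO and -2.58 in WT cells, and the 21 longer ones -0.30 in RLKO and -1.73 in WT cells. The 600-base limit was set after the values were seen and falls in a gap between 576 bases (SEC11C) and 678 bases (SPCS2). Spearman's rho between coding length and the change over the 35 genes was 0.63 in RLKO and 0.71 in WT cells, against 0.22 and 0.33 over 12093 protein-coding genes. With the length of the whole mRNA, untranslated parts included, rho over the 35 was weaker, at 0.38 in RLKO and 0.49 in WT cells, and some genes with short coding sequences have long mRNAs, such as SPCS3 with 4571 bases. Of the 4 genes called in WT cells 3 were short: SEC61G with 204 bases, DAD1 with 339 and SSR4 with 519. These calls were thus 3 of the 14 short genes and 1 of the 21 longer ones. Within the WT level span of the 35, 139 of 657 short protein-coding genes and 113 of 1937 longer ones were called lower. The shares in the list were near these. The split was present among other genes as well. Protein-coding genes under 600 coding bases within the WT level span of the 35 had a median of -0.77 in RLKO and -2.24 in WT cells (657 genes), and longer ones -0.41 and -1.44 (1937 genes).

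**Figure D3:**
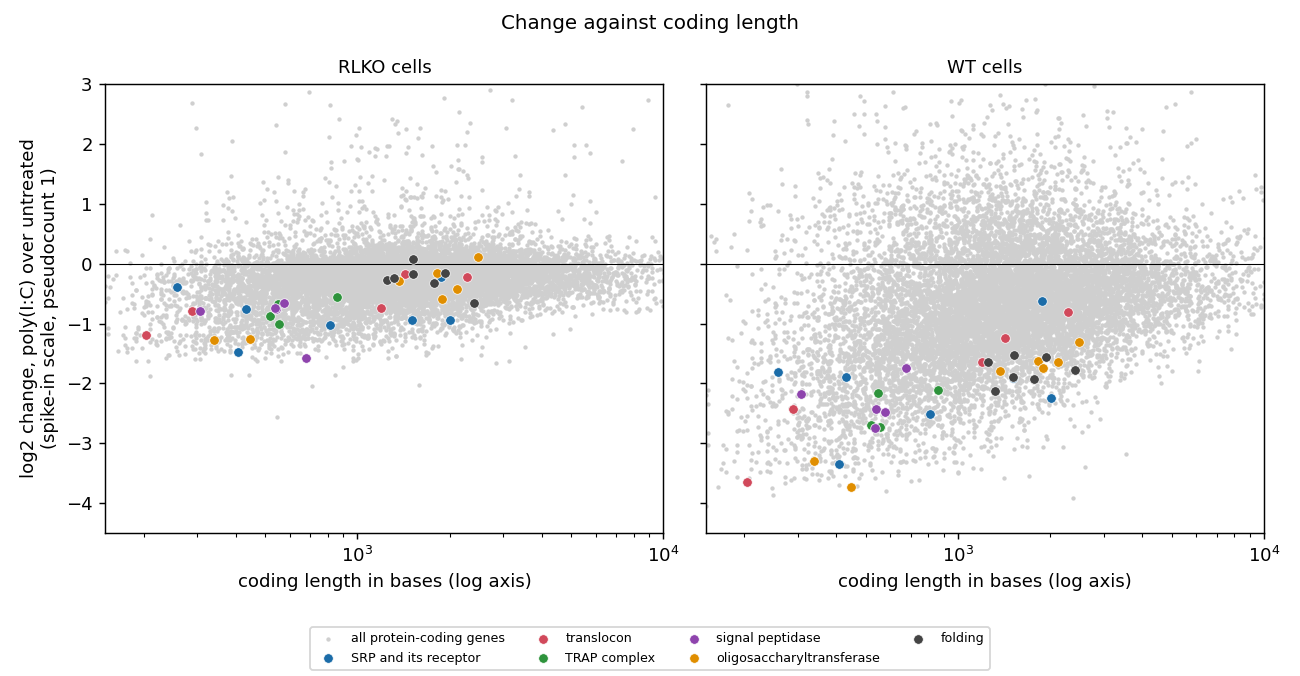
log2 change after poly(I:C) on the spike-in scale (y axis, genes outside the drawn range left out) against coding length in bases (log axis) in RLKO cells (left) and WT cells (right), with grey points for all protein-coding genes and coloured points for the 35 genes by role. In both panels the coloured points climb from the short genes at the left, SEC61G the shortest, to the long ones at the right, with rho of 0.63 in RLKO and 0.71 in WT cells.

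Level and length went together in this list, and they cannot be told apart in 35 genes. Spearman's rho between FPKM in untreated WT cells and coding length was -0.47. The change in RLKO cells had a rho of -0.49 with the untreated RLKO level, and the change in WT cells one of -0.62 with the untreated WT level, against -0.41 and -0.68 over protein-coding genes. The untreated value enters both axes of these relations. P4HB broke the pattern with 584 FPKM in untreated RLKO cells and 586 in untreated WT cells and changes of only 0.07 and -1.52. The changes in RLKO and WT cells had a rho of 0.77 with each other over the 35 genes and 0.56 over protein-coding genes.

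**Figure D4:**
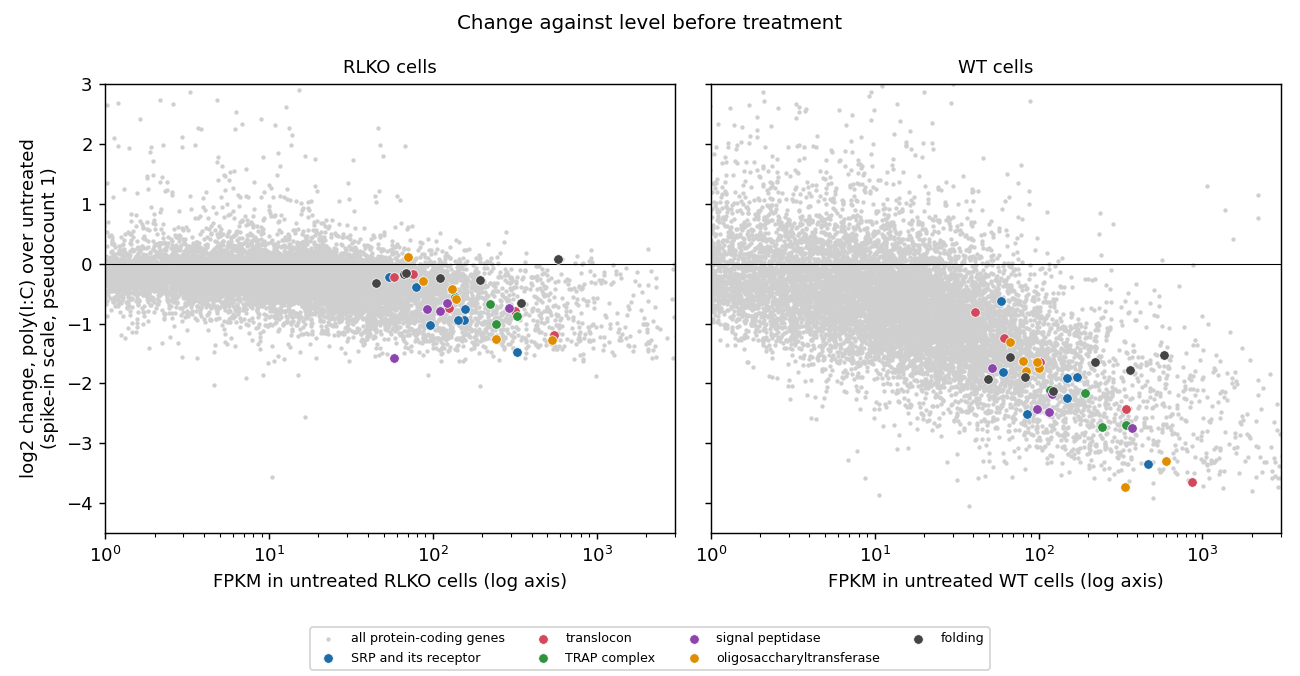
log2 change after poly(I:C) on the spike-in scale (y axis, genes outside the drawn range left out) against FPKM in untreated cells of the same genotype (log axis) in RLKO cells (left) and WT cells (right), with grey points for all protein-coding genes and coloured points for the 35 genes by role. The 35 genes sit among the abundant transcripts, and in WT cells they run downward with level to -3.64 for SEC61G at 866 FPKM, with P4HB above that slope.

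Half-lives, which the authors' deposited table carries from another study in a unit its header does not name, were long in this list. Of 34 ER genes with a value, 17 stood at the column's maximum of 24, that is 50%, against 7.13% of 9527 protein-coding genes. Among the 2400 with a value within the WT level span of the 35, the share was 15.4%. Within the list the rho between half-life and the change was 0.16 in RLKO and -0.14 in WT cells, against -0.21 and -0.51 over protein-coding genes. Since 17 of the 34 values were tied at the maximum, the rho within the list cannot show how closely the changes follow half-life. The GC content given in the table had a median of 42.4% over the 35 genes, with a rho of 0.42 to the change in RLKO cells and 0.20 in WT cells.

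Other ER genes of the same pathways had smaller median changes in both genotypes. Another 4 lists of such genes held 103 symbols, of which 98 reached 1 FPKM in any group. Over the 98 the median change was -0.33 in RLKO and -1.30 in WT cells. In RLKO cells the order did not hold for every pathway. The median there was -0.52 for other N-glycosylation genes against -0.42 for oligosaccharyltransferase. It was -0.36 for other folding and disulfide genes against -0.24 for folding. The other translocation and insertion genes went the other way, with -0.19 against -0.74 for the translocon. The 98 were less abundant, with a median of 29.4 FPKM in untreated WT cells against 118 for the 35. Over protein-coding genes the WT change had a rho of -0.68 with that level, and its part in the smaller changes was not tested. In RLKO cells 0 of 98 were called lower by the authors' q, against 0.0246% of protein-coding genes. In WT cells 7 were called lower, against 3.09% of protein-coding genes, and 1 higher, against 4.27%. At an unadjusted p under 0.05, 3 were lower in RLKO cells, against 1.86% of protein-coding genes, and 27 in WT cells, against 12.1%.

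The other translocation and insertion genes (22 of 24 kept, 3 called lower in WT cells) had medians of -0.19 in RLKO and -1.46 in WT cells. WRB, a receptor subunit for tail-anchored proteins, had 26.0 FPKM in treated and 66.3 in untreated RLKO cells, against 11.3 in treated and 75.8 in untreated WT cells, and fell by 3.23 in WT cells with q = 0.0264 in the authors' deposited table. EMC7 and EMC4, subunits of the ER membrane protein complex that inserts membrane segments, changed by -2.47 and -2.33 in WT cells, both called lower, and their changes in RLKO cells were -0.55 and -0.77. The other N-glycosylation genes (31 kept) had medians of -0.52 in RLKO and -1.36 in WT cells, and 0 were called by q, although 6 had an unadjusted p under 0.05 in WT cells in the authors' deposited table. Their most abundant transcripts were again small oligosaccharyltransferase subunits. OST4 had 275 FPKM in treated and 632 in untreated RLKO cells, against 112 in treated and 658 in untreated WT cells, and TMEM258 changed by -1.24 in RLKO and by -3.33 in WT cells.

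The other folding and disulfide genes (23 of 24 kept, 4 called lower in WT cells) had medians of -0.36 in RLKO and -1.59 in WT cells. TXNDC12, a thioredoxin-fold oxidoreductase, fell by 3.04 in WT cells with q = 0.0313 and MANF, an ER stress-inducible cofactor of BiP, fell by 2.74 with q = 0.0247 in the authors' deposited table. PRDX4, the ER peroxiredoxin, had 151 FPKM in treated and 181 in untreated RLKO cells, against 51.7 in treated and 211 in untreated WT cells, and fell by 2.61 with q = 0.00546 in WT cells in the authors' deposited table. SDF2L1, which assists BiP, fell by 2.02 with q = 0.00754 in the same table. The changes of TXNDC12, MANF, PRDX4 and SDF2L1 in RLKO cells were -1.41, -0.99, -0.44 and -0.32.

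The genes of the unfolded protein response and of ER-associated degradation (22 of 24 kept) had medians of -0.15 in RLKO and -1.04 in WT cells, the WT value being the closest of the 4 lists to the protein-coding median of -0.70. ERN1, the ER stress sensor IRE1 alpha, was the only one of the 98 called higher by q. It had 4.60 FPKM in treated and 3.58 in untreated RLKO cells, against 13.9 in treated and 3.81 in untreated WT cells, and rose by 1.10 log2 units in WT cells with q = 0.0194 in the authors' deposited table. Its change in RLKO cells was 0.15. VCP, the ATPase that extracts proteins from the ER, had 160 FPKM in treated and 184 in untreated RLKO cells, against 135 in treated and 206 in untreated WT cells. DERL2, a subunit of the retrotranslocation channel, changed by -0.79 in RLKO and by -2.33 in WT cells. No gene of these lists was called by q in RLKO cells, where 3 of 12181 protein-coding genes were called lower and 100 higher.

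**Figure D5:**
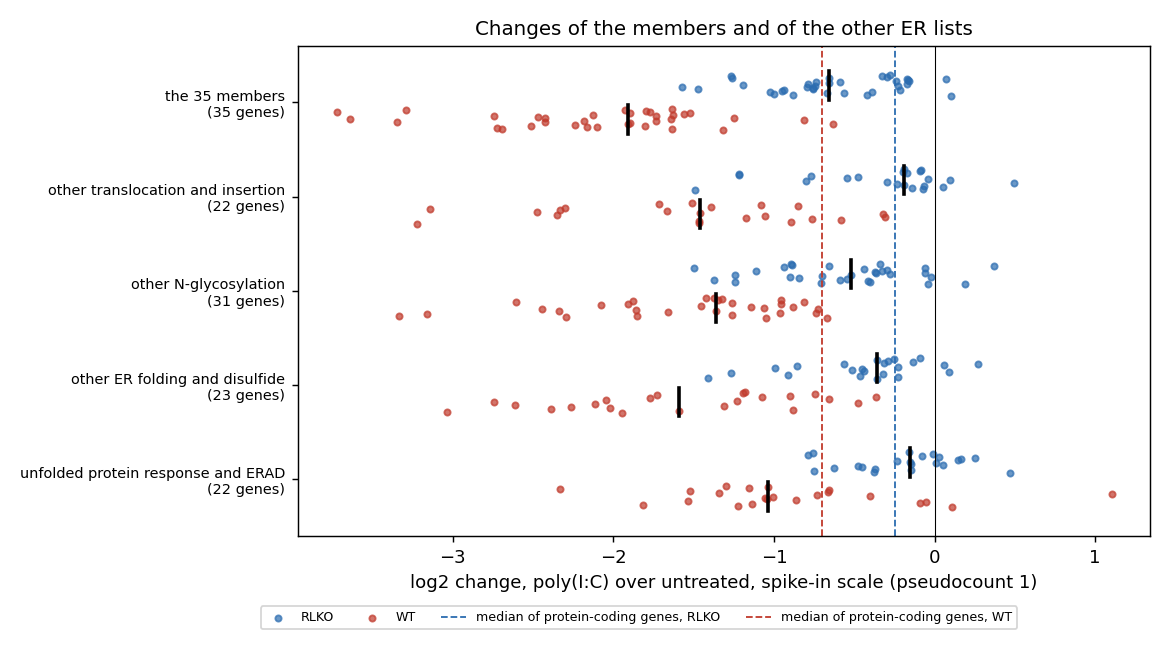
log2 change after poly(I:C) on the spike-in scale (x axis) of the 35 genes and of 4 other lists of ER genes (rows), with blue points for RLKO, red points for WT, black bars at each median and dashed lines at the protein-coding medians. The red medians run from -1.91 for the 35 genes to -1.04 for the unfolded protein response and ERAD, where ERN1, the highest red point, stands at 1.10.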

How the data were processed

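Total RNA of 12 A549 samples was sequenced after rRNA depletion; no source used here states a strand setting. Per the submitters' processing notes, reads passed FastQC and Trimmomatic 0.32 and were processed with TopHat2 2.0.6, Bowtie2 2.0.2 and Cuffdiff 2.2.1 on GRCh38.p12. The deposited table holds 1 FPKM per gene and group, pooled by the authors over 3 samples, with the authors' p-values and q-values for poly(I:C) against untreated within each genotype, plus each gene's GC content as a percent; the units are named per the file headers. Depth and the spread between samples are therefore unknown, and the tests planned for counts per sample were replaced by the authors' q under 0.05, a threshold on the FPKM as the authors processed them. No source used here states whether the authors scaled the tested values by the spike-ins, or whether spike-ins were added per cell or per amount of RNA.

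With Python 3.11, group FPKM were divided by factors from the median ratio of the 49 ERCC rows that averaged 1 FPKM or more, and changes were taken as log2 of scaled FPKM plus a pseudocount of 1, which understates the changes of low genes. Rows under 1 FPKM in every group were left out of background counts, as were 131 gene rows with a HIDATA status or a repeated gene identifier. Gene types, coordinates, coding lengths and mRNA sequences came from GENCODE v29, and promoters from RefSeq (GRCh38.p14). Scripts were tested on simulated data. The 35 genes, their roles and the 4 other ER lists were chosen with earlier results of these data known, and the 600-base split, the level span, the motif search and the UU and UA counts were chosen after values were seen. Full values were given for genes past q under 0.05, for the highest and lowest WT change and the 2 most abundant genes of each role, and for a few more; in the other lists for up to 4 called genes, or otherwise for the 2 with the highest FPKM. The level of the targeted gene is not reported here.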

Additional observations from a re-analysis of the deposited data

How the results depend on the processing

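No median over the 35 genes and no WT change of a called gene turned direction under the alternatives run, but some single genes that were not called did. SPCS2 had a difference between genotypes of -0.27 in the FPKM as deposited and -0.02 with median-ratio scaling, and SRP68 one of -0.01 as deposited; in RLKO cells 6 genes lay above 0 as deposited and 12 with median ratios, against 2. A value counted as moved when it shifted by more than 0.1 log2 units. With a pseudocount of 5 the median difference between genotypes (RLKO minus WT) was 1.37. In the FPKM as deposited, without spike-in scaling, the medians over the 35 genes were -0.48 in RLKO cells, -1.30 in WT cells and 1.06 for their difference, and the genotypes differed by -0.054 untreated and 1.09 treated. With median-ratio scaling over kept genes they were -0.29, -1.36 and 1.31, and -0.15 untreated, and 23 of 35 genes lay below 0 in RLKO cells. Both scalings moved all 105 single-gene values, and the pseudocount of 5 moved 26. They shift the protein-coding median too, to -0.10 in RLKO and -0.17 in WT cells as deposited and to 0.06 and -0.23 with median ratios. Relative to that median the list stood at -0.41 in RLKO and -1.20 in WT cells, at -0.39 and -1.13 as deposited, and at -0.35 and -1.14 with median ratios. Called lower in WT cells were 9 of 35 genes at q under 0.1 and 0 at q under 0.01 in the authors' deposited table, where 20 had an unadjusted p under 0.05. No share over all genes was taken at q under 0.1 or 0.01, so these counts show only how the calls depend on the threshold. At the unadjusted p the share was 12.1% of protein-coding genes and 33.8% of those within the WT level span. A pseudocount of 0.1 and brighter spike-ins left the medians over the 35 genes within 0.1. The filters could not move them, since all 35 genes pass each one, but they moved the protein-coding median in WT cells to -0.10 without a filter and to -1.01 at 10 FPKM or more, so that the list stood at -1.80 and -0.90 relative to it. Leaving out the 6 genes whose pseudogene copies reached 0.1 of their FPKM gave a WT median of -1.93, and leaving out the 4 called genes gave -1.90; these exclusions were chosen after seeing the data. No paired analysis was possible because the table gives 1 pooled value per group, and leaving out a replicate was not run for the same reason.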

Other observations

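XBP1, whose spliced mRNA encodes an activator of ER chaperone genes, had 74.9 FPKM in treated and 47.4 in untreated RLKO cells, against 63.8 in treated and 38.6 in untreated WT cells, and it passed q under 0.05 in neither genotype in the authors' deposited table. HSPA5, the chaperone BiP, had 99.6 FPKM in treated and 103 in untreated RLKO cells, against 70.0 in treated and 108 in untreated WT cells. Of the 87 genes of the other ER lists with a promoter window, 5 held an ERSE (HSPA5, CRELD2, ALG12, ERO1B and XBP1), with CRELD2 and ALG12 sharing 1 element between them, and 3 held an ERSE-II (HYOU1, SDF2L1 and HERPUD1).

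Copies of 10 of the 35 genes elsewhere in the genome numbered 27. Their summed FPKM in untreated WT cells was at least 0.1 of the parent gene's for 6 genes: 15.4 times for SRP9, 1.45 for SPCS2, 0.634 for PDIA3, 0.195 for SEC63, 0.153 for SRP14 and 0.114 for OSTC. How the authors' counting divided reads between parents and copies cannot be told from the table.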
